A study of Mus musculus with 4 samples.

Results

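The genes described here are 10 components of the inflammasome pathway that were measured in bleomycin (BLM)-treated mouse skin, with and without GSDMD. They were taken by name from a table of 24441 genes, and all 10 were found: the sensors Nlrp3, Nlrp1b, Nlrc4 and Aim2, the adaptor Pycard, the NLRP3 partner Nek7, the caspases Casp1, Casp4 and Casp8, and Ninj1. Skin was collected after 28 days of BLM injections from 2 WT mice and 2 GSDMD KO mice, all of them C57BL/6 animals labelled as female and 8 weeks old, and 1 library was sequenced from each. The KO mice come from zygotes edited with Cas9, so the loss of GSDMD is not limited to a cell type. The edited exons and the number of founder lines are not given in the sources used here. All 4 mice had received BLM, an antibiotic whose repeated injection scars the skin, so the libraries compare genotypes in treated skin and hold no saline-treated skin.

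An inflammasome is a protein complex that assembles in the cytosol when a sensor detects an infection or cell damage. The sensor recruits ASC, the product of Pycard, which in turn recruits caspase-1. Active caspase-1 matures IL-1β and IL-18 and cuts GSDMD, whose N-terminal part forms pores in the plasma membrane, and the cell dies by pyroptosis. Caspase-11, the product of Casp4, cuts GSDMD in response to intracellular lipopolysaccharide, and NINJ1 then ruptures the membrane of the dying cell. Macrophages and neutrophils are well known for inflammasome activity, and keratinocytes also produce ASC, caspase-1 and IL-18.

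The deposited levels were read as FPKM, a level per transcript length and library depth. No source used here names this unit, which was inferred from the values, and every level and fragment estimate depends on it. Fold changes are KO minus WT of log2(FPKM + 1), so that differences of low genes are compressed. Values of a genotype are given in the order replicate 1, replicate 2. A gene was tested with limma if it had at least 1 FPKM in at least 2 libraries, and it was called at an adjusted p under 0.05 with an absolute log2 fold change above 1. By this rule 0 of 13027 genes (0%) were called with all 4 libraries. Without the adjustment, the same limits were passed by 539 genes that were lower and 802 that were higher in GSDMD KO mice, and with median-ratio scaling by 700 lower and 614 higher genes. The median log2 fold change of all genes tested was 0.11, and -0.01 with that scaling.

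The libraries of each genotype were not alike in their cell type markers. As background for the counts below, 19663 genes were above 0 in a library. Of these, 19.2% were lower and 28.8% higher in both KO libraries than in both WT libraries. Of 11 macrophage markers 9 were lower in both KO libraries than in both WT libraries, and their summed level was 2080 and 2110 FPKM in WT replicates 1 and 2 against 874 and 92.2 FPKM in KO replicates 1 and 2. For 8 neutrophil markers, of which 6 were lower in both KO libraries, the sums were 764 and 626 against 310 and 151 FPKM. Ly6g and Mpo were at 0 in both KO libraries but also close to 0 in WT, at 0.238 and 0.0928 FPKM and at 0.0227 and 0.0278 FPKM, and Elane overlapped between the genotypes. Fibroblast markers summed to 31.5 FPKM in KO replicate 2, against 231 to 511 FPKM in the other libraries, and endothelial markers to 7.88 against 67.6 to 98.1 FPKM. Keratinocyte markers were 3620 and 2850 in WT against 8010 and 5670 FPKM in KO skin, and 4 of the 6 were higher in both KO libraries. T cell markers summed to 10.2 to 13.3 FPKM in the other libraries and to 3.68 FPKM in KO replicate 2. Skeletal muscle markers were abundant, at 17700 and 16700 in WT against 11300 and 10300 FPKM in KO skin, with 3 of 5 lower in both KO libraries. Adipocyte markers summed to 1750 to 4800 FPKM in the other libraries and to 208 FPKM in KO replicate 2. Of 10 hair follicle markers 7 were higher in both KO libraries, with sums of 8.56 and 0.811 in WT against 351 and 11.0 FPKM in KO skin. In all, 4 Y-linked genes summed to 1.78 FPKM in KO replicate 2 and to 0 in the others, although the mice are labelled female. All 7 listed skin genes found in the table, keratins and collagens among them, were above 0 in every library.

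The deleted gene, Gsdmd (chromosome 15, 75692769 to 75697834 in mm9, the build of the table), had 14.0 and 18.2 in WT against 3.53 and 2.26 FPKM in KO skin. Both KO libraries were thus below both WT libraries, with a remainder of the mRNA still counted. The log2 difference came to -2.14 (standard error 0.29) with a limma adjusted p of 0.248.

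In GSDMD KO skin the mRNA of all 4 sensors and of Ninj1 was lower in both libraries than in both WT libraries, whereas Pycard and Casp1 were higher in both. Nek7, Casp4 and Casp8 overlapped between the genotypes. Of the 10 genes, 5 thus lay wholly below and 2 wholly above WT. Over the 19663 genes above 0 in a library, 19.2% lay wholly below and 28.8% wholly above. The 2 of 10 above do not exceed that share. Of the 5 below, Nlrc4 rests on an estimated 0.979 fragments in KO replicate 2, and the level of Nlrp1b is uncertain. In both genotypes the 4 sensors had the lowest levels of the 10 genes. Ninj1 was the most abundant in WT mice and Pycard in KO mice.

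The promoters of 6 of these start sites are shown because they belong to genes on opposite sides of the comparison: Nlrp3, Aim2 and Ninj1, which were lower in both KO libraries, and Pycard and Casp1, which were higher in both. Each run of 300 bases reads 5′ to 3′ from 250 bases before the start of transcription to 50 after it, from RefSeq on GRCm38.p6, a later build than that of the table. Capitals mark matches on either strand to the PU box core GAGGAA, which is bound by the myeloid factor PU.1, or to the NF-κB core GGANTTTCC.
Nlrp3, downstream start (chr11:59542436-59542735, plus strand): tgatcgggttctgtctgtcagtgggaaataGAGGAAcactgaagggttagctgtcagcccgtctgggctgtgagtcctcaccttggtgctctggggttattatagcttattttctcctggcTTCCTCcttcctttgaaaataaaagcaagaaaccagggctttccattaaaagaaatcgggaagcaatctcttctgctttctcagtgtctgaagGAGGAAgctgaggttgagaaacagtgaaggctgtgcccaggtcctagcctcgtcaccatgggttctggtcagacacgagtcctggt
Nlrp3, upstream start (chr11:59541319-59541618, plus strand): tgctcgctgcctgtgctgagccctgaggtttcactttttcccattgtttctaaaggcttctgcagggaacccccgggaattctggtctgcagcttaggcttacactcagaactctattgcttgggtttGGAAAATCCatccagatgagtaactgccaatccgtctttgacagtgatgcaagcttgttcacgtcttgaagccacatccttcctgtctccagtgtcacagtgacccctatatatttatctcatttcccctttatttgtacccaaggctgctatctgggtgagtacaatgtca
Aim2 (chr1:173420354-173420653, plus strand): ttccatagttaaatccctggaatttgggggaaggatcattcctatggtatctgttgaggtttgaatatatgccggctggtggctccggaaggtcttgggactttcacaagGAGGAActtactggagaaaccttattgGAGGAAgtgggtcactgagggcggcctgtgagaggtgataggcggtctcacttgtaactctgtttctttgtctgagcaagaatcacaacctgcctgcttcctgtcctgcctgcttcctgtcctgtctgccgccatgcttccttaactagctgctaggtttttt
Pycard (chr7:127993818-127994117, minus strand): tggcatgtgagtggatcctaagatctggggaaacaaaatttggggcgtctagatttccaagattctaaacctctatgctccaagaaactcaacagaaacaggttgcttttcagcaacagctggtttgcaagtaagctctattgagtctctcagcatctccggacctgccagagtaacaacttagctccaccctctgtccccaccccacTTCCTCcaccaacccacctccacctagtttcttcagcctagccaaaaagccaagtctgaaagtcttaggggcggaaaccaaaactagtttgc
Casp1 (chr9:5298267-5298566, plus strand): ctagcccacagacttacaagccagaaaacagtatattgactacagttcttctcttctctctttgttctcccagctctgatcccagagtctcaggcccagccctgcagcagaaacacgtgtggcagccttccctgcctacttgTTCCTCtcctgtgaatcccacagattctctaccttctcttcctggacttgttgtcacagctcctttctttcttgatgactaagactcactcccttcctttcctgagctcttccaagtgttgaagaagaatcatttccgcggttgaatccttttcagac
Ninj1 (chr13:49187279-49187578, plus strand): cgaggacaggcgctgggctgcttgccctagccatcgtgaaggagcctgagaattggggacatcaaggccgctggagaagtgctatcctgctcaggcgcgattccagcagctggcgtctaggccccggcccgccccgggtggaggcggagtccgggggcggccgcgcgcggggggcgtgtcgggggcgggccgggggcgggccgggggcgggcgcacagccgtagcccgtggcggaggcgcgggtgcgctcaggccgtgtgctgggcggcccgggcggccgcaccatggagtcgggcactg

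All 10 genes had a promoter in the RefSeq table, 13 in all. The PU box core was in 5 of the 13 (38.5%), those of Nlrp3 (downstream start), Nlrp1b (first start), Aim2, Pycard and Casp1, against 28.3% of 32851 promoters of the same length. It was therefore present in genes that were lower and in genes that were higher in GSDMD KO mice. The NF-κB core was in 1 promoter, that of the upstream Nlrp3 start, 122 bases before the start, and in 1.25% of all promoters. The core of the interferon response element, GAAANNGAA, was in 0 of the 13 and in 8.56% of all promoters. None of the matches in these promoters overlapped another motif. The promoters of Ninj1 and Nek7 were rich in CpG, with 37 and 23 CpG dinucleotides, while those of the other 8 genes held 0 to 5. At least 20 CpG were found in 26.5% of all promoters, and the median was 7. Such matches describe the letters in these windows and show no binding.

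**Figure D1:**
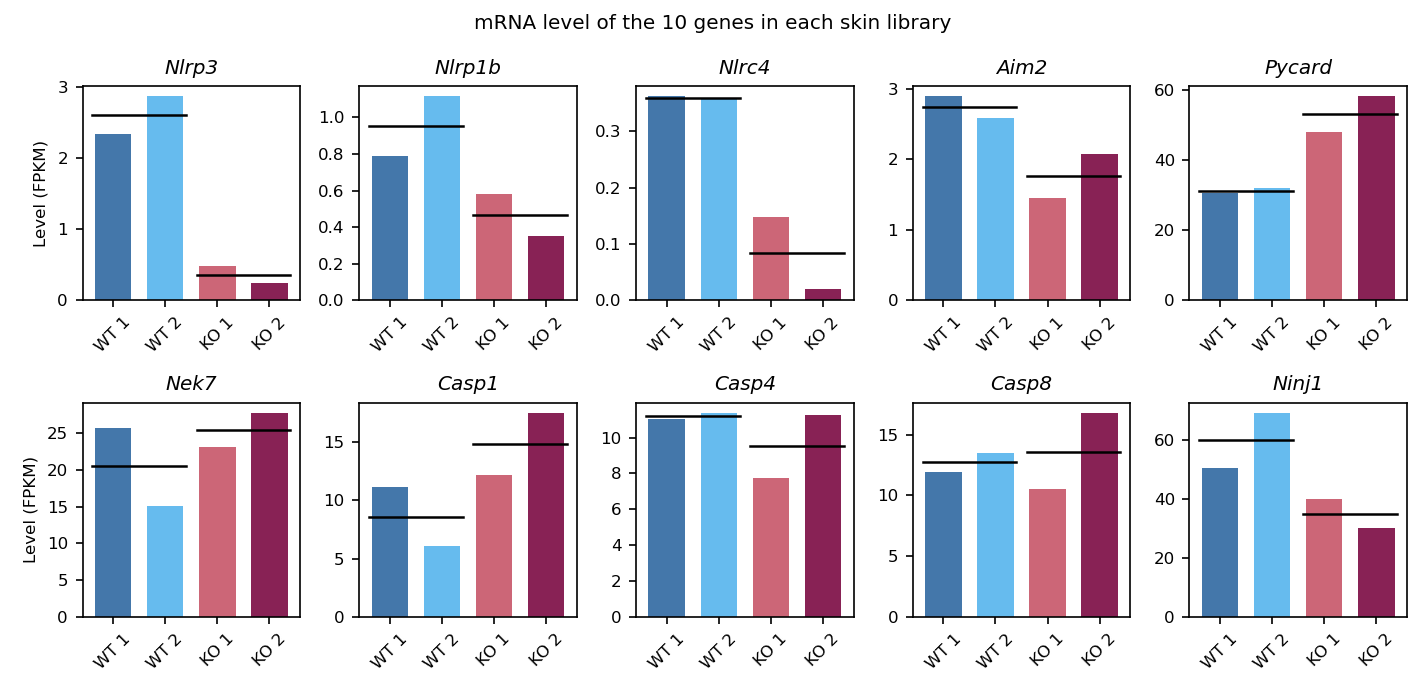
FPKM (y axis, from 0, scaled per gene) of the 10 genes in WT replicates 1 and 2 (blue) and KO replicates 1 and 2 (red); bars are single libraries and black lines are group means. Both red bars are below both blue bars for Nlrp3, Nlrp1b, Nlrc4, Aim2 and Ninj1, and above them for Pycard and Casp1.

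NLRP3, the sensor of potassium efflux, crystals and many other signs of cell damage, had the largest difference among the 8 of these genes that were tested. Nlrp3 lies on chromosome 11 of mm9 (59356188 to 59380458), with 10 exons in its longest annotated transcript of 4021 bases. Its level was 2.33 and 2.87 in WT against 0.476 and 0.247 FPKM in KO skin. The groups were far apart, with a WT mean of 2.60 ± 0.380 and a KO mean of 0.361 ± 0.162 FPKM (SD, n = 2 each), so that the WT mean was 7.19 times the KO mean. On the log2 scale with the pseudocount the difference was -1.40 (standard error 0.25, 95% interval -2.05 to -0.76, unadjusted p = 0.00242, adjusted p = 0.248 by limma). Nlrp3 had passed the filter on low values through the WT libraries alone, so its difference is not independent of that filter. An estimated 163 and 165 fragments stood behind the WT values and 26.4 and 12.7 behind the KO values, from what 1 fragment is worth in low genes.

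Nlrp3 was the only one of the 8 genes tested that passed the unadjusted limits in the lower direction, where 4.14% of all genes tested did, and since the filter had let it in through the WT libraries, nothing is read from this count. With 1 FPKM required in every library Nlrp3 was not tested and 0 of the 10 passed. In the higher direction 0 of the 8 passed, against 6.16% of all genes tested. At an unadjusted p under 0.05 of any size, Nlrp3 and Ninj1 were lower (background 6.22%) and Pycard was higher (background 10.9%). For a single gene, exact two-sided permutation over 2 against 2 mice has 0.333 as its smallest p. When each library was left out in turn, the log2 fold change of Nlrp3 stayed between -1.52 and -1.28. A pseudocount of 0.1 gave -2.59. Over 12 alternatives the limma adjusted p ran from 0.0195 to 0.941, and the lowest came without KO replicate 1, in a fit that called 2058 genes and rests on KO replicate 2 as the only KO library, assumed to vary like the WT libraries.

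Per 1000 FPKM of the summed macrophage markers, Nlrp3 stood at 1.12 and 1.36 FPKM in the WT libraries, at 0.544 in KO replicate 1 and at 2.68 in KO replicate 2. The KO libraries thus lay on either side of WT by this measure, which was chosen after the values had been seen. Fewer cells of a type and less RNA per cell cannot be told apart in bulk skin, and the part of the macrophage and neutrophil markers in the lower Nlrp3 level was not tested.

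NLRC4 senses bacterial flagellin and secretion systems through NAIP receptors. Nlrc4 (chromosome 17, 74825635 to 74858448) was the lowest of the 10 genes, at 0.362 and 0.356 in WT against 0.148 and 0.0200 FPKM in KO skin. The WT libraries were nearly equal and both KO libraries were lower, KO replicate 2 by the most. These values correspond to an estimated 24.2 and 19.6 fragments in WT and to 7.84 and 0.979 fragments in KO libraries, so the value of KO replicate 2 is below the floor of 3 fragments. Nlrc4 was too low to enter the test. Set against the macrophage markers, its level was 0.174 and 0.169 FPKM per 1000 FPKM in WT and 0.170 and 0.217 in KO libraries. The value of KO replicate 2 has no precision on this scale either, and no overlap or difference is read from it.

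NLRP1B is activated when certain proteases cut it or when DPP9 is inhibited. Nlrp1b (chromosome 11, 70966604 to 71044235) had 0.788 and 1.12 in WT against 0.579 and 0.349 FPKM in KO skin. The WT mean was 2.05 times the KO mean, and 19.2 to 69.0 fragments were estimated behind a value. It was not tested, because 1 library alone reached 1 FPKM. Its neighbours Nlrp1a and Nlrp1c-ps are close copies, and the authors' counting may have split fragments among them, which makes the level uncertain.

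AIM2 binds double-stranded DNA in the cytosol. Aim2 (chromosome 1, 175350735 to 175396167) had 2.90 and 2.59 in WT against 1.45 and 2.07 FPKM in KO skin. KO replicate 1 was the lowest here, unlike for the other sensors, where KO replicate 2 was. The log2 fold change was -0.45 (standard error 0.26, 95% interval -1.10 to 0.21, adjusted p = 0.398 by limma), and it lay between -0.63 and -0.29 over the alternatives run. Relative to the macrophage markers, Aim2 had 1.39 and 1.23 FPKM per 1000 FPKM in WT libraries, 1.66 in KO replicate 1 and 22.4 in KO replicate 2.

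ASC is the adaptor that joins sensors to caspase-1 and polymerises into the speck seen in activated cells. Pycard (chromosome 7, 135134887 to 135137381, 3 exons) had 30.6 and 32.0 in WT against 48.0 and 58.2 FPKM in KO skin. Both KO libraries were clearly above the closely matched WT libraries, 53.1 ± 7.24 against 31.3 ± 1.02 FPKM (SD, n = 2 each). Pycard was 1.70 times as high in KO mice, a log2 difference of 0.74 (standard error 0.24, 95% interval 0.13 to 1.34, unadjusted p = 0.0256, adjusted p = 0.258 by limma). It kept its sign in the 13 alternatives, from 0.60 without KO replicate 2 to 0.88 without KO replicate 1.

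NEK7 is a kinase family member that binds NLRP3 and is needed for its assembly. Nek7 (chromosome 1, 140380414 to 140516334) had 25.8 and 15.2 in WT against 23.1 and 27.8 FPKM in KO skin. The spread between the WT mice was wider than the difference between the genotypes, with a log2 fold change of 0.34 (95% interval -0.49 to 1.18, adjusted p = 0.580 by limma). Without WT replicate 2 the difference was -0.02.

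Caspase-1 is the protease that the canonical inflammasomes activate. Casp1 (chromosome 9, 5298517 to 5307281) had 11.1 and 6.06 in WT against 12.1 and 17.5 FPKM in KO skin. The groups did not overlap, but the higher WT and the lower KO library were close. The log2 fold change of 0.75 (standard error 0.37, 95% interval -0.18 to 1.69, adjusted p = 0.347 by limma) was 1.14 without WT replicate 1 and 0.37 without WT replicate 2.

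Casp4, which encodes the lipopolysaccharide sensor caspase-11, is the next gene on the same chromosome (5308849 to 5336791). It stood at 11.0 and 11.4 in WT against 7.77 and 11.3 FPKM in KO skin. KO replicate 2 was between the WT libraries and only KO replicate 1 was lower. The log2 fold change was -0.24 (95% interval -0.93 to 0.46, adjusted p = 0.647 by limma), and 0.01 without KO replicate 1.

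Caspase-8 starts apoptosis below death receptors and can also cut GSDMD. Casp8 (chromosome 1, 58852218 to 58904347) had 11.9 and 13.5 FPKM in WT, inside the 10.5 and 16.8 FPKM of the KO libraries. Its log2 fold change of 0.06 (95% interval -0.71 to 0.84, adjusted p = 0.923 by limma) changed sign with the scaling and with the library left out.

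**Figure D2:**
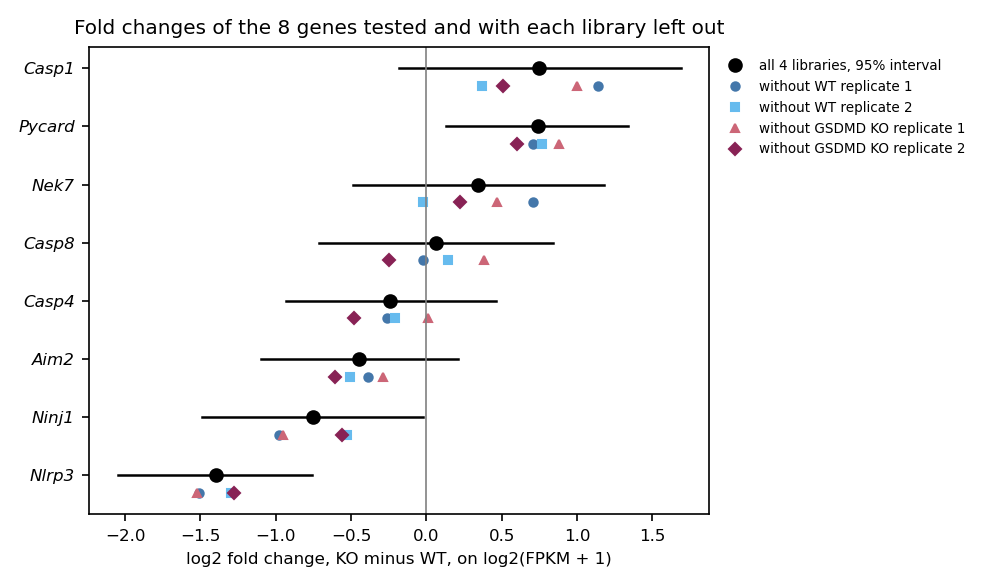
Log2 fold changes of the 8 genes tested (x axis, KO minus WT on log2(FPKM + 1)), as black points with 95% limma intervals, and below each the value with 1 library left out (coloured symbols). Nlrp3 sits at -1.40 and stays between -1.52 and -1.28, while the coloured symbols of Nek7, Casp8 and Casp4 fall on both sides of 0.

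Like Pycard and Casp1, 4 of the 6 keratinocyte markers were higher in both KO libraries (28.8% of genes above 0 in a library). Krt1 and Krt10 overlapped, with KO replicate 2 below both WT libraries. Per 1000 FPKM of the 6 keratinocyte markers, Pycard was at 8.46 and 11.2 in WT against 5.99 and 10.3 FPKM in KO skin. Casp1 was at 3.07 and 2.12 in WT against 1.52 and 3.09 FPKM in KO skin by the same measure. The genotypes overlapped for both genes on this scale, which was chosen with the values known. Krt1 and Krt10 were at 1665 and 1670 FPKM in KO replicate 1 but at 280 and 266 FPKM in KO replicate 2. The overlap of Pycard thus depends on counting these keratins. The part of the keratinocyte markers in the higher levels was not tested.

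NINJ1 is a small membrane protein that clusters in dying cells and tears the plasma membrane after GSDMD pores have formed. Ninj1 (chromosome 13, 49282916 to 49291620) was the most abundant of the 10 genes in WT mice, at 50.5 and 69.3 FPKM, and had 39.8 and 30.1 FPKM in the KO libraries. The groups did not overlap, but the WT mice differed from each other by more than the lower WT library differed from the higher KO library. Group means were 59.9 ± 13.3 and 35.0 ± 6.85 FPKM (SD, n = 2 each). The log2 fold change was -0.75 (standard error 0.29, 95% interval -1.49 to -0.02, unadjusted p = 0.0462, adjusted p = 0.288 by limma), with -0.95 without KO replicate 1, -0.56 without KO replicate 2 and values from -0.98 to -0.53 over the alternatives. Per 1000 FPKM of the macrophage markers, KO replicates 1 and 2 had 45.6 and 327 FPKM of Ninj1 and the WT libraries 24.3 and 32.9 FPKM, so both KO libraries were above WT on that scale. The part of the markers in the lower Ninj1 level was not tested.

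**Figure D3:**
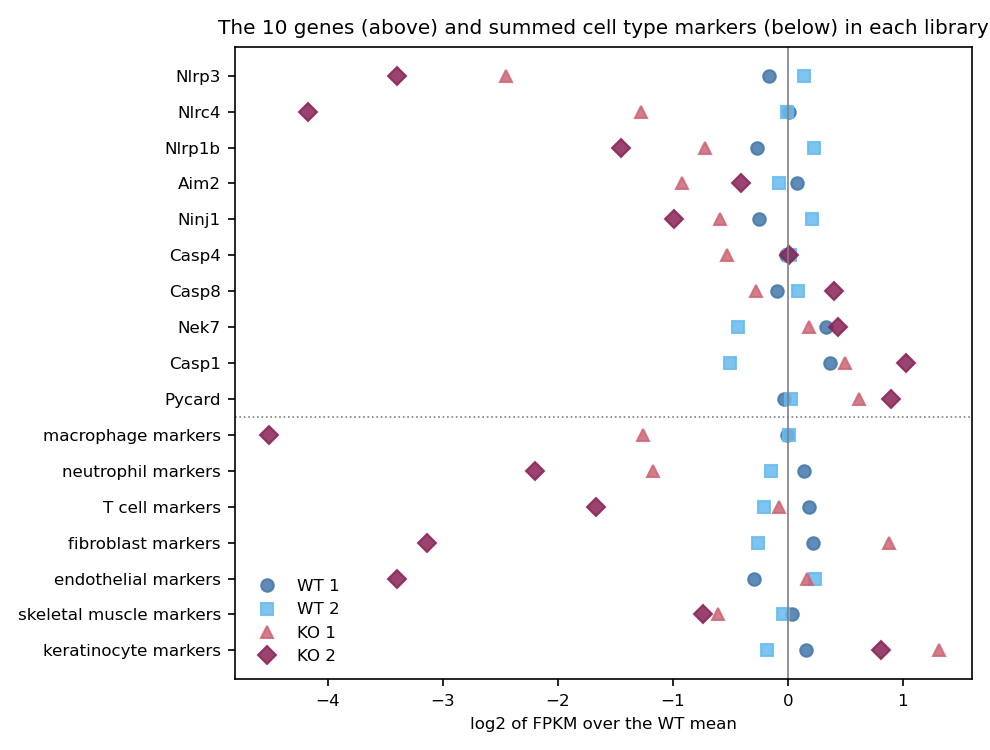
Each library's FPKM as log2 of its ratio to the WT mean (x axis) for the 10 genes and, below the dotted line, for summed cell type markers; symbols are single libraries. Nlrp3 lies at -2.45 in KO 1 and -3.40 in KO 2 and the macrophage markers at -1.26 and -4.51, the Nlrc4 point of KO 2 rests on under 3 fragments, and keratinocyte markers lie at 1.31 and 0.81.

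Ratios between 2 genes of a library do not depend on how libraries were scaled. Pycard mRNA was 13.1 and 11.2 times the Nlrp3 level, per length, in the WT libraries and 101 and 236 times in the KO libraries. For Casp1 over Nlrp3 the ratio was 4.77 and 2.11 in WT and 25.5 and 71.0 in KO libraries. These ratios restate the opposite directions of the genes already given and rest on few Nlrp3 fragments in KO skin. The macrophage markers were lower and most keratinocyte markers higher in the same libraries, and their part in the ratios was not tested. Ninj1, though lower in KO mice itself, was 21.7 and 24.2 times the Nlrp3 level in WT and 83.7 and 122 times in KO libraries.

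In order of level the WT means ran from Ninj1 (59.9 FPKM) through Pycard (31.3), Nek7 (20.5), Casp8 (12.7), Casp4 (11.2) and Casp1 (8.59) to Aim2 (2.74), Nlrp3 (2.60), Nlrp1b (0.952) and Nlrc4 (0.359). Among neighbours in this order, the WT libraries of Casp4 and Casp1 and those of Aim2 and Nlrp3 overlapped. In KO mice Pycard led with 53.1 FPKM before Ninj1 (35.0) and Nek7 (25.5), followed by Casp1 (14.8), Casp8 (13.6) and Casp4 (9.52), whose libraries overlapped with their neighbours. Nlrp3, at 0.361 FPKM, came after Aim2 (1.76) and Nlrp1b (0.464), and its KO libraries overlapped those of Nlrp1b.

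Other genes of the pathway were read from 6 lists. With all 4 libraries, 0 genes of any list were called after adjustment over all genes tested. Fits that left 1 KO library did call some of them, Il1b among these. Of 13 other sensor genes 7 were tested, with a median log2 fold change of -0.87 (0.11 for all genes tested). That median was -0.19 with no filter and turned to 0.55 with 1 FPKM required in every library, so its direction rests on genes that only the WT libraries let in. Mefv, which encodes the myeloid sensor pyrin, had 2.05 and 4.66 in WT against 0.481 and 0.176 FPKM in KO skin, with a log2 fold change of -1.65 (adjusted p = 0.248 by limma). Nlrp10, a family member known from keratinocytes, had 7.45 and 2.51 in WT against 12.9 and 11.2 FPKM in KO skin and a log2 fold change of 1.26 (adjusted p = 0.279 by limma). These are the 2 of the 7 that passed the unadjusted limits, 1 in each direction, against 4.14% lower and 6.16% higher of all genes tested. Mefv, like Naip2 and Naip5, passed the filter on low values through the WT libraries alone, so its place among the lower genes is not independent of that filter. Nlrp10 was at 0.62 without WT replicate 2 and at 1.89 without WT replicate 1, so 1 WT library sets its size. The NAIP receptors that feed NLRC4, named here after their values were seen, were low throughout. Naip5 had 1.85 and 1.84 in WT against 0.777 and 0.185 FPKM in KO skin, and Naip1 was listed at 0 in both KO libraries but was also close to 0 in WT, at 0.102 and 0.188 FPKM. The Naip genes are near copies of each other, so their separate levels are uncertain.

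The 7 other caspases were all tested, and their median log2 fold change was 0.24 (0.11 for all genes tested). Leaving out KO replicate 1 gave 0.42 and leaving out KO replicate 2 gave 0.07, beside 0.11 with median-ratio scaling. Of them 1, Casp14, passed the unadjusted limits in the higher direction, as did 6.16% of all genes tested, with 62.8 and 22.8 in WT against 113 and 82.7 FPKM in KO skin (log2 fold change 1.32, adjusted p = 0.291 by limma). Caspase-14 acts in the cornifying epidermis. Its log2 fold change was 2.03 without WT replicate 1 and 0.61 without WT replicate 2, so 1 WT library decides whether it passes. The caspase-8 partners and necroptosis genes had a median of -0.06 over values of both signs, from -0.51 for Cflar, an inhibitor of caspase-8, to 0.32 for Tradd, an adaptor of the TNF receptor. Of the 8 genes 0 passed the unadjusted limits (4.14% lower and 6.16% higher of all genes tested) or an unadjusted p under 0.05 of any size (6.22% and 10.9%), so their count does not stand apart from the background.

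Among 15 priming and regulatory genes 4 were lower past the unadjusted limits and 0 were higher, beside 4.14% and 6.16% of all genes tested. Their median was -0.51, but -0.21 without WT replicate 1 and -0.19 without KO replicate 2. Pstpip1, an adaptor of pyrin in leukocytes, had 12.2 and 28.2 in WT against 6.61 and 2.38 FPKM in KO skin, and Zbp1, a sensor of Z-form nucleic acid that interferon induces, had a mean of 42.3 ± 3.87 against 12.1 ± 7.67 FPKM (SD, n = 2 each). The log2 difference was -1.96 for Pstpip1 and -1.85 for Zbp1 (adjusted p = 0.248 for each by limma). Gbp3, an interferon-induced GTPase, had 13.0 and 11.0 against 6.78 and 3.81 FPKM, and Txnip, a thioredoxin-binding protein, had 272 and 278 against 185 and 97.9 FPKM. For all 4 genes KO replicate 2 was the lowest library, and without it the log2 difference was -0.57 for Txnip, -0.74 for Gbp3, -1.22 for Zbp1 and -1.37 for Pstpip1.

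Among the 6 substrates and products of the pathway the directions were split, with 2 lower (Gsdmd and Il1b) and 1 higher (Il18) past the unadjusted limits, beside 4.14% and 6.16% of all genes tested. Gsdmd is the deleted gene itself. The median of the 6 was -0.28 but 0.26 with Gsdmd left out. It was also 0.26 with 1 FPKM required in every library, a filter that keeps Gsdmd and drops Gsdme. The sign of this median thus rests on single genes, and not on the deleted gene in particular. Il1b had 35.7 and 59.8 in WT against 2.49 and 4.65 FPKM in KO skin (log2 fold change -3.41, adjusted p = 0.248 by limma). Il18, the other cytokine that caspase-1 matures, had 25.4 and 12.1 in WT against 41.4 and 34.5 FPKM in KO skin (log2 fold change 1.06, adjusted p = 0.280 by limma), and both KO libraries were above both WT libraries. Without WT replicate 2 the value for Il18 was 0.56. Per 1000 FPKM of the macrophage markers Il1b had 17.2 and 28.4 FPKM in WT libraries, 2.85 in KO replicate 1 and 50.5 in KO replicate 2. Il18 had 7.02 and 4.25 FPKM in WT libraries and, between those values, 5.17 and 6.08 FPKM in KO libraries per 1000 FPKM of the keratinocyte markers. Of the paralogs, Ninj2 was listed at 0 in both KO libraries but was also low in WT, at 0.281 and 1.08 FPKM. It was named after its values were seen. Nek6 and Nek9 were tested, and 0 of the 2 passed the unadjusted limits, against 4.14% lower and 6.16% higher of all genes tested. Both were lower in both KO libraries, as were 19.2% of the genes above 0 in a library.

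**Figure D4:**
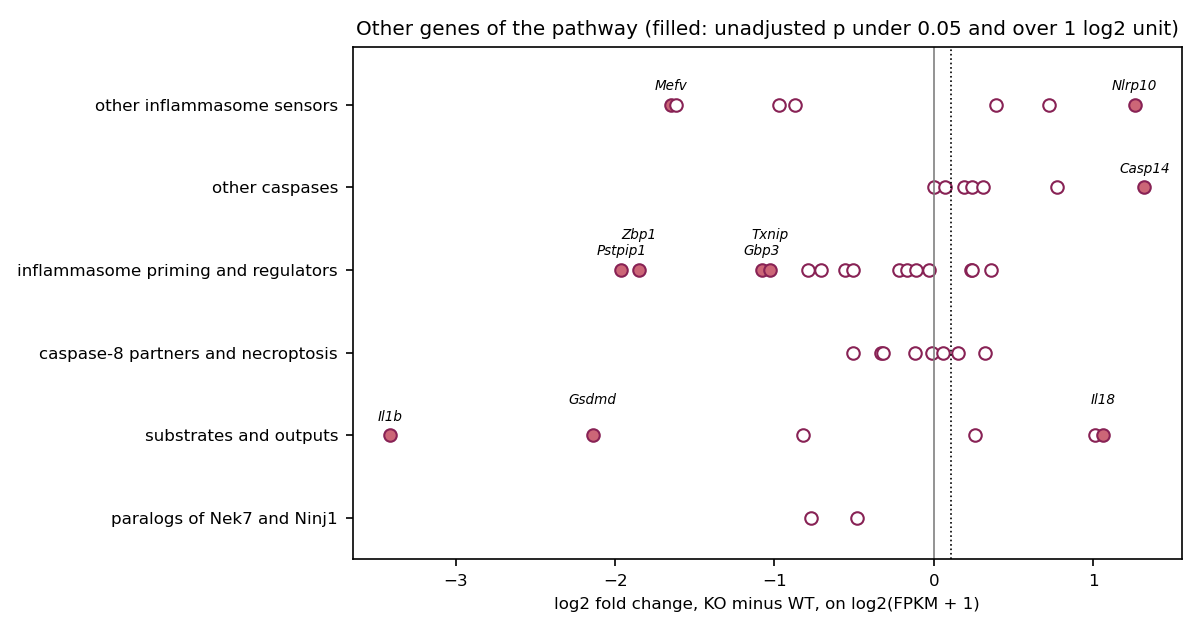
Log2 fold changes (x axis, KO minus WT on log2(FPKM + 1)) of the tested genes in 6 lists of the pathway (rows); each point is a gene, filled and named where the unadjusted p was under 0.05 and the absolute change above 1, and the dotted line is the median of all genes tested, 0.11. Il1b (-3.41), Gsdmd (-2.14), Pstpip1 (-1.96), Zbp1 (-1.85) and Mefv (-1.65) lie far left, and Casp14 (1.32), Nlrp10 (1.26) and Il18 (1.06) lie right of 0.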

How the data were processed

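Skin mRNA of 2 WT and 2 GSDMD KO mice was analysed. The authors' notes name HISAT2 version 2.0.1, StringTie version 2.0.6 and mm9, and the paper describes read counting. The deposited table, whose name speaks of raw counts, was nevertheless read as FPKM values that the authors had normalised for length and depth. This unit was inferred from the values, and the program that made them is not given in the sources used here: 99.993% of the values above 0 are not exactly whole numbers as written in the table. The count model of the paper could therefore not be used, and limma version 3.58.1 in R version 4.3.3 was fitted to log2(FPKM + 1) with genotype as the only term and a mean-variance trend, over 13027 genes, with Benjamini-Hochberg adjustment. The fit was also run on simulated data with independent noise, of equal spread in every library for a given gene. That setting does not mimic KO replicate 2, which differed across whole marker lists, so nothing on that library is read from it. The 10 genes, gene lists and named genes (all members, Gsdmd, list genes past the unadjusted limits, and markers) were chosen with earlier results of these data known. Naip1, Naip2, Naip5, Cflar, Tradd, Nek6, Nek9 and Ninj2 fall outside that rule and were named after their values were seen. The library depths are not in the table. They were estimated from the steps of low values in 2710 single-transcript genes (GENCODE models on mm9), 1 fragment on 1 kb being worth 0.0574 to 0.0783 FPKM, and are approximate. P-values rest on the spread between 2 mice a group, which limma draws towards the spread of genes of similar level. They thus borrow precision from other genes. Python version 3.11.15 with pandas version 2.3.3 served for the tables. Alternatives were other pseudocounts, filters and scalings, no trend, replicate blocks and leaving out each library, and the crossed block was added after the data had been seen.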

Additional observations from a re-analysis of the deposited data

How the results depend on the processing

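Of the 8 genes tested, Nlrp3, Aim2, Ninj1, Pycard and Casp1 kept their direction in the alternatives run. Casp8 reversed to -0.07 with median-ratio scaling and -0.03 with upper-quartile scaling, and ranged from -0.25 to 0.38 with a library left out. Nek7 ranged from -0.02 to 0.71 and Casp4 from -0.48 to 0.01 in the same way. Called genes numbered 0 in every fit of all 4 libraries, and 0 to 2058 with 1 left out: 43 without KO replicate 2 and 2058 without KO replicate 1. Each of these leaves 1 KO library, assumed to vary like the others. The unadjusted counts ranged from 242 to 1605 lower and 266 to 1412 higher genes with a library left out, and 352 genes were lower when 1 FPKM was required in every library. That filter removed Nlrp3, so 0 genes of the 10 were then lower. With a library left out, 0 to 1 of the 10 were higher, Casp1 without WT replicate 1 or KO replicate 1. Same-numbered libraries deviated with a correlation of -0.20, so they were treated as unpaired. With the replicate number as a replicate block, 686 lower and 907 higher genes passed the unadjusted limits, and with the crossed block 681 and 819. The median of the other sensors was -1.84 and -1.25 with pseudocounts of 0.1 and 0.5, -0.19 without a filter, 0.55 with 1 FPKM in every library, -1.29 with TPM scaling and -1.26 to -0.47 with a library left out. That of the regulators was -0.82 to -0.19, and that of the substrates turned from -0.28 to 0.26 both with Gsdmd left out, an alternative added after the data had been seen, and with 1 FPKM in every library. The caspase-8 partners stood at -0.18, -0.04 and -0.15 with median-ratio, TPM and upper-quartile scaling, and at -0.13 to -0.02 with a library left out. Where no cause is named, it was not tested. Below about 3 fragments a value has no precision.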
